A study of Mus musculus with 19 samples.

Results

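The classical type I interferon-stimulated antiviral genes Ifit1, Ifit2, Ifit3, Ifit3b, Isg15, Usp18, Rsad2, Mx1, Mx2 and Ifi27l2a were followed in CD11b+ cells enriched with magnetic beads from mouse brain. The genes were chosen by symbol, and all 10 were found among the 56980 genes of the count table and passed the filter on low counts, which kept 18739 genes. The cells came from male PARK7/DJ-1 KO mice and their wildtype littermates of 3 to 4 months, which received intraperitoneal LPS (E. coli O55:B5, 4 µg per g body weight) or the vehicle PBS 6 h before the brain was taken. The KO line carries a gene trap in Park7 (B6;129P2-Park7 Gt(XE726)Byg) and was backcrossed to C57BL/6NCrl, and all groups share that background and the loss of olfactory bulb and cerebellum at dissection. There were 4 wildtype PBS, 5 KO PBS, 5 wildtype LPS and 5 KO LPS libraries, 1 per mouse.

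Type I interferons bind the receptor of IFNAR1 and IFNAR2, whose kinases JAK1 and TYK2 activate a transcription factor complex that includes STAT2 and IRF9. It binds interferon-stimulated response elements in the promoters of antiviral genes, and IRF7 is one of the induced factors that extend the response. LPS engages TLR4, whose TRIF branch can induce interferon-β in myeloid cells, microglia among them.

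The products differ in function. IFIT proteins bind foreign RNA ends or restrict translation. ISG15 is a ubiquitin-like modifier that USP18 removes from proteins, and USP18 is also a negative regulator of the receptor. RSAD2 (viperin) makes an antiviral ribonucleotide, MX proteins are dynamin-like GTPases, and Ifi27l2a encodes a small hydrophobic membrane protein.

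The promoters are shown because the interferon-stimulated response element is the sequence that ties these genes to the pathway. RefSeq promoter entries (GRCm38.p6) were found for 6 of the 10 genes, and the 250 bases before the annotated start were searched on both strands for the core of that element, GAAA followed by any 2 bases and GAAA. The core was present in 5 of the 6 genes and in 936 of the 27025 genes of the promoter table (3.46%). Each window printed here runs from base 200 to base 41 before the start, 5′ to 3′ on the strand of the gene, with cores in capitals. A core on the opposite strand reads TTTC, 2 bases, TTTC. Positions are those of the exact match in GRCm39.
Isg15, chr4:156285316-156285475, minus strand: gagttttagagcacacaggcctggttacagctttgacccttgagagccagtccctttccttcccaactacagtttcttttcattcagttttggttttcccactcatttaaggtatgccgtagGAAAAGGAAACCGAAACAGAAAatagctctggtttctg
Ifit1, chr19:34618089-34618248, plus strand: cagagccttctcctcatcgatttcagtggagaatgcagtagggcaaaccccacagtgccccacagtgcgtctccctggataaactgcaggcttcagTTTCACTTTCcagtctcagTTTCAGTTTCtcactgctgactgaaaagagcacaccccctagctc
Ifit3, chr19:34560729-34560888, plus strand: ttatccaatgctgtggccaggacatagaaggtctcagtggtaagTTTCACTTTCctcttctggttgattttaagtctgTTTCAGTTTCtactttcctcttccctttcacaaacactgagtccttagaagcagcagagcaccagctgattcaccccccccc
Ifit3b, chr19:34585157-34585316, plus strand: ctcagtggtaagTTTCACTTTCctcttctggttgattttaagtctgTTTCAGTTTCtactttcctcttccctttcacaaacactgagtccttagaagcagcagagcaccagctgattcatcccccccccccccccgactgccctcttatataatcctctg
Rsad2, chr12:26506492-26506651, minus strand: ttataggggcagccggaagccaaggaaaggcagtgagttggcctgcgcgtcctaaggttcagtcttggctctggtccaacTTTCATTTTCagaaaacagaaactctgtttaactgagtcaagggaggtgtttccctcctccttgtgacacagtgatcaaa

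Isg15 held 3 overlapping cores, Ifit1, Ifit3 and Ifit3b 2 each, and Rsad2 1. Lined up on the first core, Ifit3 and Ifit3b were identical at 80 of 80 bases around both cores. Neither of the 2 Ifit2 entries held a core. Their windows, at 34527844 to 34528093 and 34528238 to 34528487 on chromosome 19, lie mostly and wholly inside the gene as GENCODE M39 places it, from 34527932, so most of the bases before that start were not searched. Usp18, Mx1, Mx2 and Ifi27l2a had no matching entry. Among the other pathway genes listed below, 7 of 29 with an entry held a core (24.1%).

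In GRCm39 with GENCODE M39, the 4 Ifit genes lie within 104 kb on chromosome 19, in the order Ifit2 (34527932 to 34554524), Ifit3 (34560899 to 34566443), Ifit3b (34585328 to 34590801) and Ifit1 (34618271 to 34632174), all on the plus strand. Mx1 (97248235 to 97264107, minus) and Mx2 (97336508 to 97362100, plus) are neighbours within 114 kb on chromosome 16. Rsad2 (26492745 to 26506451, minus) and Ifi27l2a (103399975 to 103409950, minus) are on chromosome 12, and Usp18 (121222848 to 121247877, plus) is on chromosome 6. Isg15 (156283883 to 156285303, minus) is on chromosome 4, 5.28 Mb beyond the end of Park7, so 129-derived sequence that may have stayed beside the gene trap cannot be told apart from the loss of Park7 at this locus. Mx1 and Mx2 are known to be defective as proteins in most inbred laboratory mice, and their RNA is what is given here.

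Some of these genes share sequence. Of all 75-base windows in the exons of Ifit3b, 38.0% also occur in Ifit3, and 26.4% of those of Ifit3 occur in Ifit3b, so reads of this pair can be divided between them and their separate values are uncertain. Mx1 and Mx2 share 62 windows, 2.63% of those of Mx1. Ifi27l2a overlaps Ifi27 on the opposite strand over part of its exons, in 10.6% of its windows. Ifit1 lies within Ifit1bl2 on the opposite strand, with 0 exon windows shared between the opposite strands. With each gene read along its own strand, 134 windows of Ifit1 (1.84%) also occur in Ifit1bl2. Whether counting used the strand is not given in the sources used here.

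Totals per library ran from 11936364 to 22788884 counts. Values below are normalised read counts in CPM (counts scaled to a common library size by TMM), and 3 counts correspond to 0.139 to 0.256 CPM. Park7 itself was 20.6 to 25.2 CPM in wildtype PBS, 22.3 to 32.1 in wildtype LPS, 0.457 to 2.59 in KO PBS and 1.69 to 5.38 in KO LPS, so Park7 matched the label of every library. The summed level of 8 microglial markers was 17947 to 28823 CPM at PBS and 6509 to 11338 CPM after LPS. Monocyte markers, 5 in all, summed to 27.8 to 62.3 CPM at PBS and to 137 to 363 CPM after LPS, and each of them rose in both genotypes. Neutrophil markers, 7 in all, summed to 17.9 to 184 CPM at PBS and to 70.4 to 351 CPM after LPS, with 2 called higher in wildtype and 3 higher and 1 lower in KO. In each genotype 3 of 6 markers of border-associated macrophages and 2 of 5 endothelial markers fell, and 1 of 4 astrocyte and 1 of 4 neuron markers rose. No monocyte marker was at 0 in any group, and the markers of T and NK cells summed to at most 2.71 CPM and those of B cells to at most 1.02 CPM in any library. In bulk RNA a change in the cells that carry a transcript cannot be told apart from a change per cell, and the part of this shift in the results was not tested.

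After LPS all 10 genes rose in wildtype cells and all 10 rose in PARK7/DJ-1 KO cells. Rsad2 had the highest fold change in both genotypes and Ifi27l2a the lowest. In every gene, each LPS library was above each PBS library of its genotype. A gene was called here at an adjusted p below 0.05 and an absolute log2 fold change of at least 0.5 (edgeR quasi-likelihood test, Benjamini-Hochberg over 18739 genes). Among all genes tested, 18.4% were called higher in wildtype and 20.1% in KO, and the libraries did not overlap, with LPS higher, in 20.8% and 16.2%. The median log2 fold change of the 10 genes was 3.95 in wildtype and 3.76 in KO, against -0.06 and -0.01 over all genes.

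**Figure D1:**
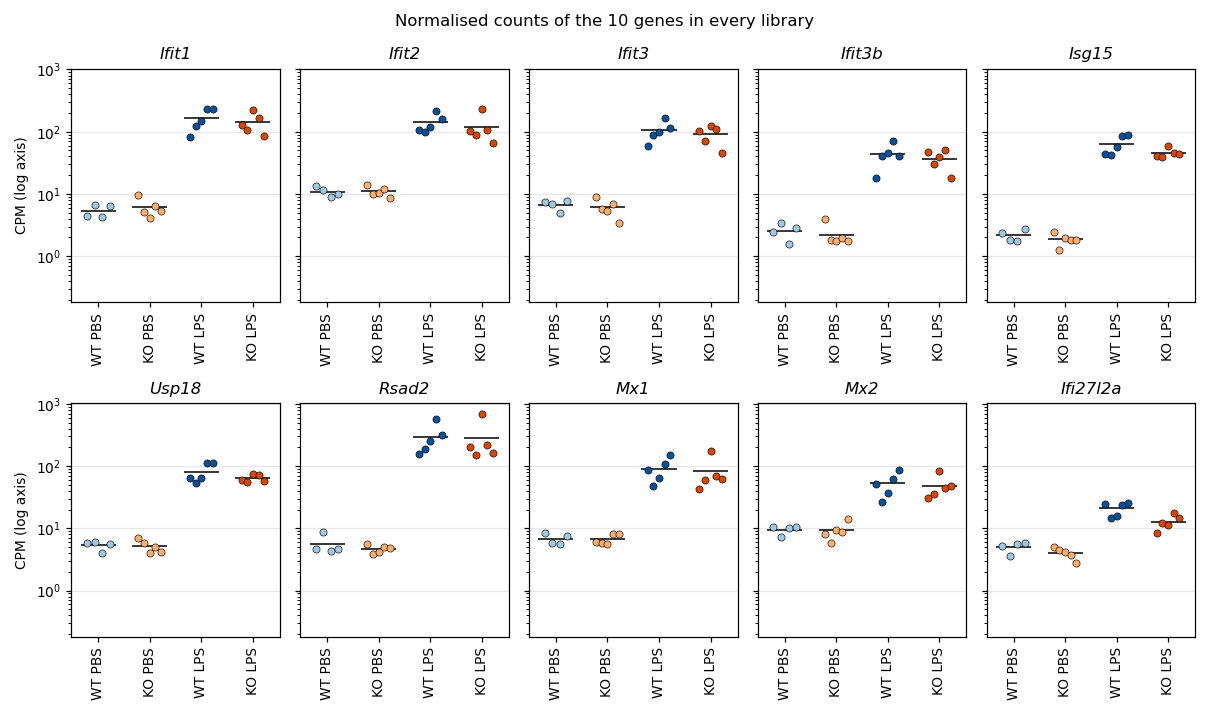
Normalised counts of the 10 genes in every library, in CPM on a log axis, with 1 point per mouse and a line at the mean of each group (4 wildtype PBS, 5 in each other group). The LPS points lie above the PBS points of the same genotype in each panel, and 1 KO LPS library stands at 698 CPM in Rsad2.

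Rsad2, the viperin gene, was 4.64, 8.79, 4.40 and 4.72 CPM in the wildtype PBS libraries and 154, 187, 252, 565 and 314 CPM in the wildtype LPS libraries. In KO it was 5.65, 3.93, 4.22, 5.03 and 4.86 CPM at PBS and 203, 151, 698, 222 and 162 CPM after LPS. KO LPS replicate 3 was thus more than 3 times as high as any other KO LPS library. The log2 fold change of LPS against PBS was 5.71 (SE 0.53, edgeR adjusted p = 9.99e-08) in wildtype and 5.92 (SE 0.49, adjusted p = 1.49e-08) in KO.

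Ifit1, which binds RNA that lacks the host cap methylation, was 4.38, 6.55, 4.20 and 6.40 CPM in wildtype PBS and 81.3, 122, 147, 234 and 233 CPM in wildtype LPS. The KO PBS libraries had 9.51, 5.17, 4.12, 6.39 and 5.24 CPM and the KO LPS libraries 129, 106, 225, 168 and 84.2 CPM. The LPS ranges of the genotypes largely coincide. The log2 fold change was 4.92 (SE 0.39, edgeR adjusted p = 1.48e-08) in wildtype and 4.55 (SE 0.35, adjusted p = 5.48e-09) in KO.

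Isg15 was 2.40, 1.82, 1.77 and 2.73 CPM in wildtype PBS, and 44.4, 42.7, 57.4, 84.4 and 87.0 CPM in wildtype LPS. In KO it was 2.46, 1.25, 1.93, 1.83 and 1.84 CPM at PBS and 40.1, 39.7, 58.6, 46.2 and 43.5 CPM after LPS. After LPS, 2 wildtype libraries were above all KO libraries and the other wildtype libraries were within the KO range. The log2 fold change was 4.85 (SE 0.27, edgeR adjusted p = 4.01e-10) in wildtype and 4.62 (SE 0.25, adjusted p = 1.11e-10) in KO, with the smallest adjusted p of the 10 genes in both.

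The other Ifit genes rose to similar extents. Ifit2, a partner of the other IFIT proteins, went from 8.80 to 13.6 CPM in wildtype PBS to 98.1 to 219 CPM in wildtype LPS, and from 8.70 to 14.1 CPM to 67.0 to 232 CPM in KO. Its log2 fold change was 3.68 (SE 0.34) in wildtype and 3.44 (SE 0.31) in KO. Ifit3 had a log2 fold change of 3.99 (SE 0.35) and 3.89 (SE 0.32), and its near-copy Ifit3b one of 4.08 (SE 0.41) and 4.06 (SE 0.37). All of these had an edgeR adjusted p of at most 2.23e-07.

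Usp18, the deISGylase, was 54.1 to 112 CPM in wildtype LPS and 55.6 to 74.7 CPM in KO LPS, from 4.01 to 7.06 CPM over all PBS libraries. Its log2 fold change was 3.92 (SE 0.25, edgeR adjusted p = 1.95e-09) in wildtype and 3.62 (SE 0.23, adjusted p = 7.69e-10) in KO.

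The Mx genes differed in size of response although they are neighbours. Mx1 was 87.8, 48.0, 63.5, 107 and 149 CPM in wildtype LPS and 42.2, 60.0, 176, 69.6 and 62.4 CPM in KO LPS, against 5.58 to 8.29 CPM over all PBS libraries. Its log2 fold change was 3.74 (SE 0.41, edgeR adjusted p = 5.68e-07) in wildtype and 3.60 (SE 0.37, adjusted p = 2.02e-07) in KO. Mx2 started higher, at 5.87 to 14.0 CPM at PBS, and reached 26.8 to 87.7 CPM in wildtype and 30.8 to 82.4 CPM in KO. Its log2 fold change was 2.46 (SE 0.35, adjusted p = 1.17e-05) in wildtype and 2.38 (SE 0.32, adjusted p = 5.09e-06) in KO.

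Ifi27l2a was 5.26, 3.58, 5.58 and 5.90 CPM in wildtype PBS and 24.7, 14.6, 16.0, 23.5 and 25.5 CPM in wildtype LPS. In KO it was 5.03, 4.57, 4.17, 3.77 and 2.76 CPM at PBS and 8.55, 12, 11.3, 17.5 and 14.7 CPM after LPS. Of the KO LPS libraries, 3 were below every wildtype LPS library and 2 were inside the wildtype range. The log2 fold change of LPS against PBS was 2.04 (SE 0.25, edgeR adjusted p = 2.28e-06) in wildtype and 1.66 (SE 0.23, adjusted p = 7.27e-06) in KO. Ifi27, which overlaps it on the other strand, was 33.6 to 61.4 CPM over all libraries, with a log2 fold change of 0.00 (SE 0.17) in wildtype and -0.03 (SE 0.16) in KO.

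**Figure D2:**
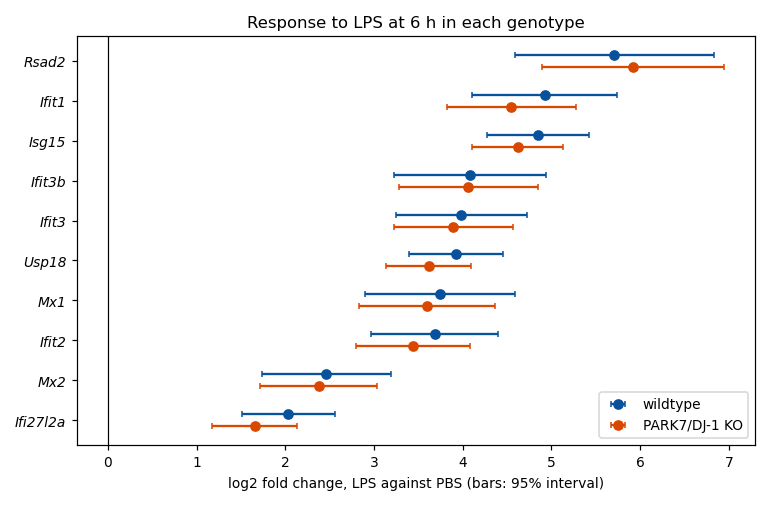
Log2 fold change of LPS against PBS at 6 h for each gene in wildtype and PARK7/DJ-1 KO cells, with 95% intervals from the edgeR fit. All 20 values lie above 0, from 1.66 for Ifi27l2a in KO to 5.92 for Rsad2 in KO, and the 2 intervals of each gene overlap.

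Per kb of annotated exon, the order of the levels differed between PBS and LPS. At PBS Ifi27l2a had the highest level in wildtype, at 4.68 ± 0.95 CPM per kb (SD, n = 4), above Isg15 at 2.79 ± 0.59, and Ifit1 the lowest, at 0.725 ± 0.17. The genes from Isg15 down to Ifit3b followed each other in steps smaller than the larger of the 2 SDs. After LPS Isg15 (80.8 ± 27.3, SD, n = 5) and Rsad2 (67.9 ± 37.6) led in wildtype and did not differ beyond their spread, followed by Ifit3 at 36.8 ± 13.7. Mx1, Usp18, Ifit2, Ifit1, Ifit3b and Ifi27l2a came next, from 27.0 ± 11.7 to 19.2 ± 4.7, each within the SD of its neighbour, and Mx2 was last at 14.6 ± 6.6. In KO after LPS the means of Rsad2 (66.2 ± 53.4) and Isg15 (58.3 ± 9.9) again came first, and that of Ifi27l2a (11.8 ± 3.2) last. The union of exons of all transcripts sets these lengths, 7421 bases for Ifit1, and which of the exons were used in these cells was not tested.

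The upstream parts of the pathway responded unevenly. Of 35 further pathway genes found in the table, 33 were tested, and LPS raised 27 in wildtype and 27 in KO and lowered 0 and 1. Of all 18739 genes tested, 18.4% in wildtype and 20.1% in KO were called higher, and 3265 and 3564 genes were called lower. Ifnb1, the gene of interferon-β, had 0 counts in all 9 PBS libraries, 2, 0, 6, 4 and 14 counts in wildtype LPS and 1, 4, 7, 2 and 14 counts in KO LPS, and was too low to be tested. Of the interferon-α genes, Ifna11 and Ifnab had 1 count each over all libraries and the others 0. The highest Ifnb1 counts were in wildtype LPS replicate 5 and KO LPS replicate 5.

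The receptor genes were not called. Ifnar1 was 154 ± 8.3 CPM in wildtype PBS (SD, n = 4) and 155 ± 28.7 CPM in wildtype LPS (n = 5), a log2 fold change of 0.01 (SE 0.14), and one of 0.22 (SE 0.13) in KO. Ifnar2 had 0.13 (SE 0.17) and 0.23 (SE 0.16). Of the receptor kinases, Jak1 rose (0.97, SE 0.15, in wildtype and 1.26, SE 0.14, in KO) and Tyk2 was at -0.02 (SE 0.18) and -0.08 (SE 0.17).

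Of the transcription factors, Irf7 rose most, from 9.07 to 14.5 CPM in wildtype PBS to 230 to 385 CPM in wildtype LPS, a log2 fold change of 4.74 (SE 0.21, edgeR adjusted p = 5.1e-11), and by 4.61 (SE 0.19, adjusted p = 1.1e-11) in KO. Stat2 and Irf9 rose less, Stat2 by 2.40 (SE 0.20) and 2.25 (SE 0.18) and Irf9 by 1.45 (SE 0.13) and 1.53 (SE 0.12) in wildtype and KO. Irf3, which is activated by phosphorylation, was at 0.44 (SE 0.18) and 0.39 (SE 0.17) and was not called. The feedback inhibitors Socs1 (1.47, SE 0.38, and 1.38, SE 0.35) and Socs3 (3.29, SE 0.27, and 3.60, SE 0.25) rose in both genotypes.

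The enzymes that attach ISG15 were split. The conjugating enzyme gene Ube2l6 rose by 2.08 (SE 0.26) in wildtype and 1.68 (SE 0.23) in KO on the log2 scale, the ligase genes Herc6 by 1.65 (SE 0.20) and 1.62 (SE 0.19) and Trim25 by 1.53 (SE 0.14) and 1.45 (SE 0.13). The activating enzyme gene Uba7 was at -0.31 (SE 0.17, edgeR adjusted p = 0.146) in wildtype and fell by 0.63 (SE 0.16, adjusted p = 0.0029) in KO. That difference between genotypes was not past the threshold of the interaction test, in which no gene was called.

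All 15 further antiviral effectors rose in both genotypes, against 18.4% of all genes called higher in wildtype and 20.1% in KO. In wildtype the highest log2 fold changes were those of the nucleic acid sensor Zbp1 (4.88, SE 0.23), of Ifi44 (3.98, SE 0.62) and of the membrane protein gene Ifitm3 (3.95, SE 0.23). The lowest were those of the dNTP hydrolase Samhd1 (1.18, SE 0.18), the RNA-activated kinase Eif2ak2 (1.49, SE 0.17) and the tetherin gene Bst2 (1.53, SE 0.19). The Ifit paralogs Ifit1bl1 (4.08, SE 0.82, and 3.15, SE 0.69) and Ifit1bl2 (3.67, SE 0.58, and 4.10, SE 0.55) rose from 12 counts or fewer per PBS library. Ifi27l2b had no count in any library.

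PARK7/DJ-1 KO against wildtype after LPS was compared to ask whether the loss of DJ-1 altered the response. For this comparison a gene was called at an unadjusted p below 0.05 with an absolute log2 fold change of at least 0.5, the threshold of the study, and 1 of the 10 genes, Ifi27l2a, was called lower in KO. Over all genes 0.763% were called lower and 0.544% higher. No member passed an adjusted p below 0.05 with edgeR or with DESeq2, and at an unadjusted p below 0.05 alone there were 2 of 10, Ifi27l2a and Isg15, with either tool. The log2 fold change was below 0 in 10 of 10 genes, against 46.7% of all genes, and the genes vary together between mice (below). The median of the 10 was -0.23 and that over all genes 0.02.

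Ifi27l2a averaged 12.8 ± 3.4 CPM in KO LPS and 20.9 ± 5.1 CPM in wildtype LPS (SD, n = 5 each), a log2 fold change of -0.70 (SE 0.22, 95% interval -1.16 to -0.24). The edgeR p was 0.0048, with an adjusted p of 1.00, and a two-sided exact permutation test of log2 CPM over the 252 splits of these 10 libraries gave p = 0.040. Leaving out any 1 of the 10 LPS libraries gave -0.84 to -0.58, past the threshold each time. Isg15 averaged 45.6 ± 7.7 and 63.2 ± 21.3 CPM, a log2 fold change of -0.47 (SE 0.20, 95% interval -0.90 to -0.04). The edgeR p was 0.034, with an adjusted p of 1.00, and the exact permutation p = 0.13. For Isg15, leaving out any 1 of the 10 LPS libraries gave -0.58 to -0.33, past the threshold in 3 of the 10 fits. The libraries of the genotypes overlapped in both genes.

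The other 8 genes had intervals that include 0 and exact permutation p-values of 0.30 to 0.78. Usp18 was at -0.34 (95% interval -0.77 to 0.08), Ifit2 at -0.24 (-0.82 to 0.34), Ifit3 at -0.23 (-0.82 to 0.36), Ifit3b at -0.22 (-0.90 to 0.45) and Ifit1 at -0.20 (-0.82 to 0.41). Mx1 was at -0.15 (-0.83 to 0.53), Mx2 at -0.13 (-0.76 to 0.49) and Rsad2 at -0.04 (-0.85 to 0.78). The lower bounds of these intervals, -0.90 to -0.76, are compatible with sizeable decreases, so the data do not show equal levels. In 4 of these genes, Rsad2, Mx1, Mx2 and Ifit3b, leaving out 1 library of the comparison also gave values above 0.

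KO LPS replicate 3 had the largest effect on how many of these genes were called. It was the highest KO LPS library in Rsad2 (698 against 151 to 222 CPM), Mx1 (176 against 42.2 to 69.6), Ifit2 (232 against 67.0 to 105) and Mx2 (82.4 against 30.8 to 47.1). Without it, 5 of the 10 genes were called lower in KO, Rsad2 (log2 fold change -0.68, SE 0.30), Ifi27l2a (-0.66, SE 0.24), Mx1 (-0.64, SE 0.26), Ifit2 (-0.63, SE 0.22) and Isg15 (-0.57, SE 0.21), each with an edgeR adjusted p of 1.00. The exact permutation p over the 126 splits that remain was then 0.22 for Rsad2, 0.071 for Ifi27l2a and for Ifit2, 0.15 for Mx1 and 0.087 for Isg15, none below 0.05. The median was then -0.50, and 1.15% of all genes were called lower. The same library had the highest monocyte marker sum (352 against 137 to 292 CPM) and neutrophil marker sum (337 against 70.4 to 241 CPM) of the KO LPS libraries, and their part in its values was not tested. Without wildtype LPS replicate 1 or without replicate 2, Ifi27l2a and Isg15 were called. Wildtype LPS replicate 4 was also high in its group. Its log2 CPM minus the group mean averaged 0.59 over the 10 genes, against 0.67 for KO LPS replicate 3. Without wildtype LPS replicate 4, Ifi27l2a was at -0.66 and called, and Isg15 was at -0.34 and not called.

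**Figure D3:**
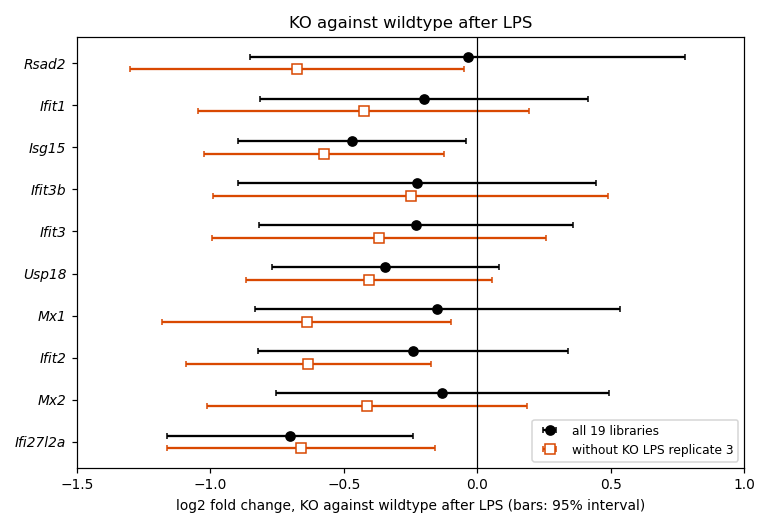
Log2 fold change of PARK7/DJ-1 KO against wildtype after LPS for each gene, with 95% intervals from the edgeR fit, for all 19 libraries (filled circles) and without KO LPS replicate 3 (open squares). With all libraries the intervals of Ifi27l2a and Isg15 stay below 0, and without that library those of Rsad2, Mx1 and Ifit2 do so too, while Rsad2 moves from -0.04 to -0.68.

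Over the pathway list 1 of 33 genes, Samhd1, was called lower in KO after LPS (log2 fold change -0.52, SE 0.17, edgeR adjusted p = 1.00, exact permutation p = 0.056), and 26 of 33 values were below 0. It had 153, 165, 256, 238 and 137 CPM in KO LPS and 275, 202, 251, 358 and 270 CPM in wildtype LPS, so the genotypes overlapped. Its value lay close to the fold threshold and fell under it, at -0.48 (SE 0.16), with the oligodendrocyte marker score as a covariate, and without KO LPS replicate 1 (-0.44), 2 (-0.47) or 5 (-0.42) or wildtype LPS replicate 4 (-0.40). With either edgeR or DESeq2, 6 of the 33 had an unadjusted p below 0.05, and the other 5 of them were under the fold threshold, each with an edgeR adjusted p of 1.00. Irf7 was at -0.47 (SE 0.16, exact permutation p = 0.040), Zbp1 at -0.48 (SE 0.17, exact permutation p = 0.048) and Uba7, the activating enzyme of Isg15 conjugation, at -0.45 (SE 0.16, exact permutation p = 0.056). Lgals3bp, named here after its values were seen, was at -0.40 (SE 0.14, exact permutation p = 0.048). The receptor kinase Jak1 was the one with a value above 0, at 0.35 (SE 0.14, exact permutation p = 0.040).

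The count of pathway genes called lower ranged from 0 to 7 when 1 LPS library was left out, while 0.563% to 1.45% of all genes were called lower. It was 7 without KO LPS replicate 3 (1.15% of all genes), 4 without wildtype LPS replicate 2 (0.856%) and 3 without KO LPS replicate 4 (1.05%). Without KO LPS replicate 5 it was 1 (1.45%), which was Socs1 and not Samhd1. It was 2 without wildtype LPS replicate 1 (0.563%) or 3 (0.77%), and 0 without KO LPS replicate 1 (0.783%) or 2 (0.857%) or wildtype LPS replicate 4 (0.979%).

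The 5 monocyte markers were all lower in KO after LPS without being called, with a median log2 fold change of -0.51, and summed to 137 to 352 CPM in KO and 217 to 363 CPM in wildtype. Both tested markers of T and NK cells were lower in KO, Ncr1 with a log2 fold change of -1.63 (SE 0.68, called) and Nkg7 with -1.29 (SE 0.70, not called), each with an edgeR adjusted p of 1.00, and this list of 5 summed to 0.112 to 1.73 CPM in KO and 0.512 to 2.71 CPM in wildtype. Of the 7 neutrophil markers 6 were below 0 and 0 were called, with a median of -0.17 and sums of 70.4 to 337 CPM in KO and 122 to 351 CPM in wildtype. The 4 oligodendrocyte markers had a median of 0.30, and sums of 1034 to 11132 CPM in KO and 477 to 6567 CPM in wildtype, with no marker at 0. Neuron markers also had a median of 0.30, with 3 of 4 above 0, and sums of 17.0 to 93.8 CPM in KO and 26.1 to 51.6 CPM in wildtype. All 5 endothelial markers were below 0, from -0.58 to -0.02 with a median of -0.12, and summed to 59.5 to 599 CPM in KO and 126 to 583 CPM in wildtype. None of the oligodendrocyte, neuron and endothelial markers was called. With the oligodendrocyte marker score as a covariate, added after these values were seen, Ifi27l2a was at -0.64 (SE 0.19) and Isg15 at -0.46, and the call of Samhd1 was lost. With an endothelial and astrocyte score they were at -0.75 and -0.46, and Rsad2 was at 0.09. No such fit was made for monocyte, T and NK cell, neutrophil or neuron markers, and their part in the difference was not tested.

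At PBS none of the 10 genes was called between the genotypes, and 0 had an unadjusted p below 0.05 with edgeR or DESeq2. Over all genes 0.576% were called lower in KO and 0.224% higher. The values ran from -0.32 (SE 0.24) for Ifi27l2a to 0.17 (SE 0.34) for Ifit1, with 8 of 10 below 0. For Ifi27l2a the 95% interval was -0.82 to 0.18 and for Isg15 -0.76 to 0.29.

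The interaction of genotype and LPS, the difference between the response in KO and that in wildtype, was called for none of the 10 genes and for 0% of all genes, while 180 genes had an unadjusted p below 0.05 with edgeR and 223 with DESeq2. The values ran from -0.38 (SE 0.33) for Ifi27l2a to 0.22 (SE 0.60) for Rsad2, with an edgeR adjusted p of 1.00 for each. Of the 10 genes 0 had an unadjusted p below 0.05 with either tool.

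Pairs of the genes differed in how closely they varied together between mice of 1 group. Deviations of log2 CPM from the group mean were compared over the 19 libraries, which share depth and cell composition within a library. Ifit1, Ifit2, Ifit3, Ifit3b, Isg15, Usp18 and Rsad2 varied together, with Pearson's r from 0.50 to 0.89 and Spearman's rho from 0.42 to 0.88 over their 21 pairs. The largest adjusted permutation p was 0.047 for r and 0.11 for rho, and r was 0.44 to 0.82 without the 2 libraries farthest from the median. Over all 45 pairs of the 10 genes, 30 had an adjusted p for r below 0.05. How often pairs of other genes pass was not computed, so this count has no background to be set against.

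Mx1 and Mx2 had the highest r of the 45 pairs, with r = 0.89 and rho = 0.81 (permutation p = 1e-05 for r, the smallest that 100000 permutations can give, adjusted p = 9e-05, r = 0.82 without the 2 farthest libraries). Mx1 also varied with Ifit2 (r = 0.71, rho = 0.58), Isg15 (r = 0.67, rho = 0.69), Rsad2 (r = 0.64, rho = 0.54), Usp18 (r = 0.55, rho = 0.62) and Ifit1 (r = 0.51, rho = 0.50), with adjusted permutation p from 0.0033 to 0.040 for r and from 0.0042 to 0.053 for rho. Without the 2 farthest libraries these r were 0.46 with Ifit2, 0.63 with Isg15, 0.31 with Rsad2, 0.43 with Usp18 and 0.47 with Ifit1. Its r was 0.29 with Ifit3 (rho = 0.39, adjusted permutation p = 0.28) and 0.04 with Ifit3b (rho = 0.07, adjusted permutation p = 0.87). Mx2 passed the correction for r with Isg15 (r = 0.71, rho = 0.71), Ifit2 (r = 0.50, rho = 0.35) and Rsad2 (r = 0.50, rho = 0.40), and of these for rho with Isg15 alone. Without the 2 farthest libraries r was 0.61 with Isg15 but 0.22 with Ifit2 and 0.21 with Rsad2, so the relation of Mx1 with Rsad2 and those of Mx2 with Ifit2 and Rsad2 rest largely on those libraries. Ifi27l2a had r between -0.11 and 0.44 and rho between -0.05 and 0.45 with the other 9 genes, with no adjusted permutation p below 0.083.

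**Figure D4:**
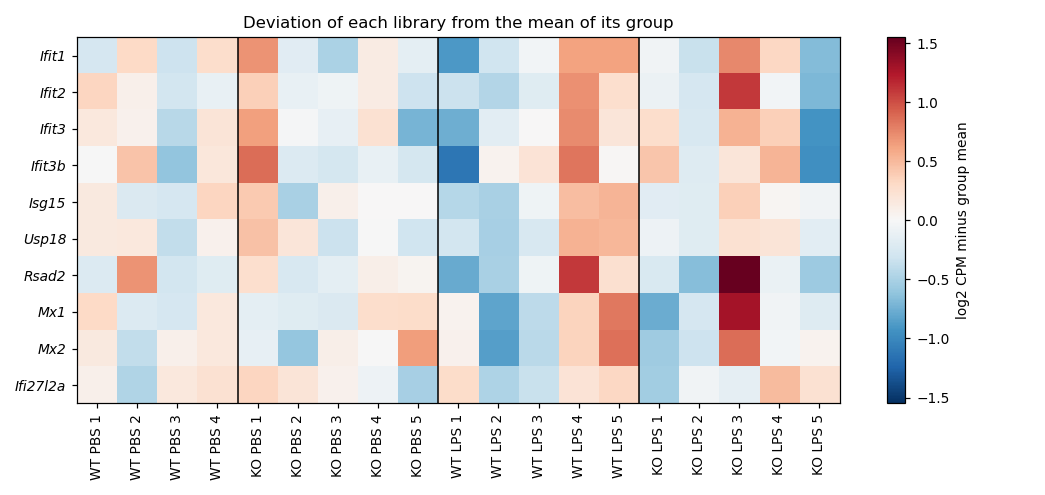
Log2 CPM minus the mean of the group for each of the 10 genes (rows) in each of the 19 libraries (columns, ordered by group). The libraries of a group differ in the same direction in most rows, as in KO LPS replicate 3 (mean over the genes 0.67) and wildtype LPS replicate 2 (-0.45).

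Among all other genes, those whose deviations were most like the mean of the 10 were Arhgap31 (r = 0.90, rho = 0.83), Ntng2 (0.90 and 0.85), Cemip2 (0.89 and 0.90), Samd9l (0.89 and 0.85), Sp100 (0.87 and 0.86), Pml (0.86 and 0.86), Cyth3 (0.86 and 0.83) and Gbp5 (0.85 and 0.82), each over 19 libraries. These were picked as the highest of all genes tested, so no test is given.

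Markers of other cells moved with some of the genes. Of the 90 pairs of a marker list and a gene, Ifit3b rose and fell with astrocyte markers (r = 0.78, rho = 0.78, adjusted permutation p = 0.0032 for r, n = 19, r = 0.72 without the 2 farthest libraries) and with endothelial markers (r = 0.78, rho = 0.77, adjusted permutation p = 0.0032, r = 0.62 without them). Ifit3 did so with astrocyte markers (r = 0.71, rho = 0.67, adjusted permutation p = 0.019, r = 0.62 without them), and Ifit1 ran against microglial markers (r = -0.68, rho = -0.65, adjusted permutation p = 0.032, r = -0.53 without them). The other 86 pairs did not pass an adjusted p of 0.05 for r. For rho, 3 of the 90 pairs passed, both pairs of Ifit3b (adjusted permutation p = 0.0077 for each) and Rsad2 against microglial markers (rho = -0.71, adjusted permutation p = 0.029, with r = -0.58 and adjusted permutation p = 0.093 for r, and r = -0.39 without the 2 farthest libraries). Ifit3 with astrocyte markers and Ifit1 against microglial markers had adjusted permutation p of 0.056 and 0.057 for rho. KO LPS replicate 5, with the lowest Ifit3b of its group (18.0 CPM), had endothelial marker sums of 59.5 CPM against 263 to 599 CPM in the other KO LPS libraries, and wildtype LPS replicate 1 (18.2 CPM) had 126 against 239 to 583 CPM.

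Within the 10 LPS libraries none of the 90 pairs passed the correction, and 8 had an adjusted permutation p below 0.1 for r. All 10 genes had r below 0 with microglial markers (-0.85 to -0.33) and above 0 with monocyte (0.32 to 0.82) and neutrophil markers (0.11 to 0.66). Without the 2 farthest libraries the monocyte r stayed above 0 (0.55 to 0.74) and the microglial r below 0 for every gene, but not every neutrophil sign held. The neutrophil r was then below 0 for Mx1 (-0.21), Mx2 (-0.19) and Ifi27l2a (-0.11). The microglial r kept its sign but shrank to -0.051 for Mx1, -0.083 for Mx2 and -0.078 for Ifi27l2a. Usp18 had the lowest r with microglial markers (r = -0.85, rho = -0.88, adjusted permutation p = 0.067 for r, r = -0.67 without the 2 farthest). Ifit3b had r = 0.85 with astrocyte markers (rho = 0.81, adjusted permutation p = 0.067, r = 0.65 without the 2 farthest), and Ifit3 had r = 0.81 with them (rho = 0.73, adjusted permutation p = 0.073), which fell to 0.43. With endothelial markers Ifit3b had r = 0.81 (rho = 0.68, adjusted permutation p = 0.092) and Ifit3 r = 0.73 (rho = 0.53, adjusted permutation p = 0.11). Without the 2 farthest libraries these fell to 0.29 and -0.057. Ifi27l2a ran against oligodendrocyte markers (r = -0.86, rho = -0.76, permutation p = 0.0014 for r, adjusted p = 0.067 over 90 pairs, r = -0.70 without the 2 farthest) and Mx1 with monocyte markers (r = 0.82, rho = 0.81, permutation p = 0.0034, adjusted p = 0.073, r = 0.61 without them). Over all 19 libraries these last pairs had r = -0.53 (rho = -0.33, adjusted permutation p = 0.12) and r = 0.58 (rho = 0.56, adjusted permutation p = 0.093). The part of cell composition in the values of these genes was not tested beyond the covariate fits given above.

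**Figure D5:**
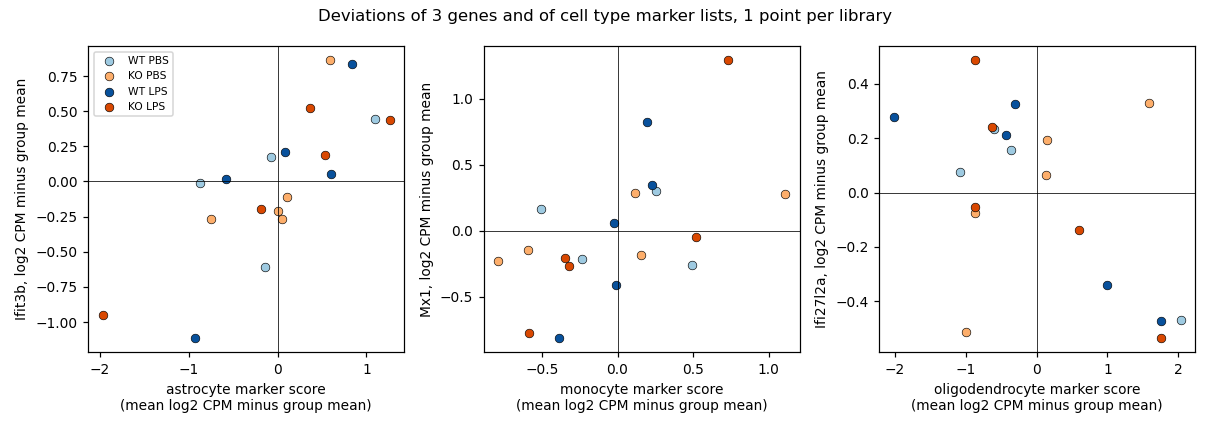
Deviation from the group mean of Ifit3b, Mx1 and Ifi27l2a (y axes, log2 CPM) against the mean deviation of astrocyte, monocyte and oligodendrocyte markers (x axes, log2 CPM), with 1 point per library coloured by group. Ifit3b increases with astrocyte markers over all 19 libraries (r = 0.78), while the slopes for Mx1 (r = 0.58) and Ifi27l2a (r = -0.53) did not pass the correction over 90 pairs.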

How the data were processed

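Ribosomal RNA-depleted stranded libraries of CD11b+ brain cells were sequenced as paired reads of 75 bases by the authors. The submitters' processing notes name cutadapt 0.17.4, STAR 2.7.9a and GRCm39. The deposited values are raw read counts per Ensembl gene, and every column of the table was used. Gene names, positions and exon lengths came from GENCODE M39, which named 56236 of 56980 IDs.

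Genes were filtered with filterByExpr, scaled by TMM and fitted in 1 edgeR 4.0.16 quasi-likelihood model of 4 groups (R 4.3.3, p-values adjusted by Benjamini-Hochberg over 18739 genes). The test was run first on simulated counts, where it recovered 42.7% of 2-fold and 77.1% of 4-fold changes of LPS against PBS in KO, 41.7% and 77.1% for KO against wildtype after LPS, and 27.2% and 58.3% for the interaction. Correlations used 100000 permutations. Log2 CPM used a prior count of 2. DESeq2 1.42.0 and the alternatives of the closing section were fitted on the same counts.

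The 10 genes, the pathway list, the marker lists and the tests were chosen with earlier results of these data known. Besides the 10 genes, named genes are Park7, the pathway list (of the effectors, the 3 highest and 3 lowest log2 fold changes in wildtype) and the 8 genes most alike. Lgals3bp, Ncr1 and Nkg7 fall outside this rule and were named after their values were seen. The exact permutation tests of single genes and both marker covariates were added after the data were seen. The values of 1 gene of the pathway list are not reported here. Protein identities, planned for the Ifit and Mx genes, were not computed because no protein table was at hand. Libraries are separate mice. Intervals and the floor of 3 counts cover counting error only where they concern single libraries. Replicate numbers were not taken as pairs.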

Additional observations from a re-analysis of the deposited data

Results flagged for a closer look

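For 40 sets of values (10 genes in 4 groups), the gap between the most extreme library and its nearest neighbour was compared with the range of the group on the log2 scale by Dixon's 95% limit, which chance passes in about 2 of 40 sets. It was passed in 4. Rsad2 was 698 CPM in KO LPS replicate 3 against 151 to 222 CPM in the other 4 libraries, and 8.79 CPM in wildtype PBS replicate 2 against 4.40 to 4.72 CPM. Ifit3b was 3.93 CPM in KO PBS replicate 1 against 1.73 to 1.94 CPM. Mx2 was 7.21 CPM in wildtype PBS replicate 2 against 9.99 to 10.6 CPM.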

How the results depend on the processing

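In wildtype and KO all 10 genes were called for LPS against PBS under every alternative run, which were DESeq2, its size factors, other count filters, fits of fewer groups, a replicate block, a log2 fold change of at least 1, both marker covariates and leaving out each library. For KO against wildtype after LPS, an adjusted p below 0.05 left 0 of the 10 genes and 0 pathway genes. With 1 library left out, 1 to 5 of the 10 genes and 0 to 7 pathway genes were called, the 5 and the 7 without KO LPS replicate 3. With the oligodendrocyte covariate 0 pathway genes were called, Samhd1 being lost. At PBS 0 to 1 pathway genes were called with 1 library left out, the 1 without wildtype PBS replicate 2. At an unadjusted p, 1 pathway gene, Samhd1, passed the interaction with edgeR and 0 with DESeq2. The causes were not tested.

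Among the 10 genes, no value that changed sign was called, either in the main fit or after the change. Rsad2 and Mx1 were called lower without KO LPS replicate 3, at the lower ends of the ranges given next. After LPS, KO against wildtype ranged over libraries left out from -0.68 to 0.34 for Rsad2, -0.64 to 0.10 for Mx1, -0.41 to 0.13 for Mx2 and -0.42 to 0.026 for Ifit3b, and Rsad2 was 0.093 with the endothelial and astrocyte covariate. At PBS the ranges were -0.041 to 0.29 for Ifit1, -0.10 to 0.13 for Ifit2, -0.32 to 0.016 for Ifit3, -0.17 to 0.052 for Usp18, -0.35 to 0.048 for Rsad2, -0.087 to 0.11 for Mx1 and -0.23 to 0.083 for Mx2. Ifit2 at PBS was -0.013 with DESeq2, -0.014 with its size factors, -0.023 without a filter, -0.024 with at least 10 counts in every sample, -0.014 with the endothelial and astrocyte covariate and -0.00096 with the oligodendrocyte covariate, and Mx1 was 0.0040 with the groups of the contrast only. The interaction ranged from -0.24 to 0.13 for Ifit3, -0.21 to 0.28 for Ifit3b, -0.42 to 0.59 for Rsad2, -0.63 to 0.11 for Mx1 and -0.37 to 0.18 for Mx2. It was 0.037 for Ifit3 with the endothelial and astrocyte covariate. For Ifit3b it was 0.16 with that covariate, 0.0028 with DESeq2, 0.0066 with its size factors and 0.0067 with at least 10 counts in every sample. Mx2 was 0.039 with the oligodendrocyte covariate.

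The replicate numbers were not taken as pairs, since in no comparison did every same-numbered pair of deviations have r above 0.1. For LPS against PBS most did, with 3 of 4 pairs in wildtype (-0.042 to 0.58, mean 0.33) and 4 of 5 in KO (0.027 to 0.54, mean 0.25). For KO against wildtype it was 1 of 5 after LPS (-0.57 to 0.30, mean -0.10) and 2 of 4 at PBS (-0.29 to 0.30, mean -0.006). Whether same-numbered LPS and PBS libraries were handled together was not tested. As a hint from the data, a library correlated best with its own number in 5 of 8 (LPS against PBS, wildtype), 6 of 10 (LPS against PBS, KO), 1 of 10 (KO against wildtype, LPS) and 3 of 8 (PBS). With a replicate block, 10, 10, 1, 0 and 0 of the 10 genes were called in the 5 comparisons, as without it, and the interaction of Mx2 was 0.14. The 10 genes had 24 counts or more in every library, while Ifnb1 was too low to be tested. Whether depth limited the comparisons of the 10 genes at PBS was not tested.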
